A study of Mus musculus with 72 samples.

Results

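Cell cycle and mitosis genes are described here as a set of 48 genes, taken from a fixed list of symbols, out of 36047 mouse gene identifiers in each organ table. All 48 were found in the tables of all 6 tissues, had a value above 0 in every one of the 72 libraries and passed the filter on low values in each tissue. Every mouse carried the EGFR DEL19 transgene, a human EGFR with a deletion that leaves this growth factor receptor active without ligand. Every mouse had also received doxycycline for 25 days, and lung tumours had been checked by micro-CT. The groups differed in the injected DNA circuit, given into a vein at 10 mg/kg every 2 days, 7 times, with tissues taken at day 14. The control circuit, CMV-scrR, encodes a scrambled RNA. The siRNA of CMV-siRE targets EGFR, and CMV-GE11-siRE adds to that siRNA the EGFR-binding peptide GE11. Thymus, spleen, liver, kidney, lung and lung tumour each had 4 libraries per circuit. The labels give neither the animals' age or sex nor the promoter that drives the transgene, and do not say which libraries share an animal.

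Dividing cells make these transcripts in 2 main waves. E2F factors drive the genes of DNA replication before and during S phase: the MCM helicase subunits, the licensing factors Cdc6 and Cdt1, the sliding clamp Pcna and the enzymes of nucleotide supply. B-Myb (Mybl2) and Foxm1, working with the MuvB complex, then drive the mitotic genes: cyclin B and its kinase Cdk1, the kinases Plk1, Aurka and Aurkb, spindle motors, kinetochore proteins, and Cdc20 and Ube2c, which serve the anaphase promoting complex. Resting cells keep these genes low through repressors that bind the same promoters. Cyclin D1 (Ccnd1) stands apart, because growth factor signals such as those of EGFR induce it before a cell commits to division. In bulk tissue, fewer dividing cells and less RNA per dividing cell cannot be told apart.

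Values are gene counts that the authors divided by size factors, and each tissue table was scaled on its own. Column totals ran from 16.9 M to 21.4 M in the organs and from 5.87 M to 43.8 M in the tumours, with M for mega. In the tumours the mitochondrial share of the total moved with the circuit: it was 63.1% to 71.4% with CMV-scrR, 45.0% to 73.1% with CMV-siRE and 8.04% to 37.9% with CMV-GE11-siRE. Human EGFR, measured in the tumour table, had means of 2999.7 ± 849.8 (SD, n = 4), 845.9 ± 366 and 85.7 ± 38.4 in the same order. Markers were present in tumour, liver, spleen and thymus: no alveolar type 2 marker was at 0 in a whole group of tumour libraries, no hepatocyte marker in liver, no B cell marker in spleen and no immature thymocyte marker in thymus. The same held for hepatocyte markers in lung, kidney, spleen and thymus, so this shows presence and not the identity of a tissue. CMV-GE11-siRE replicate 4 stood apart in kidney and in thymus. Its long transcripts lay 0.79 and 0.86 log2 units below its short ones, relative to the other libraries, against -0.28 to 0.20 and -0.18 to 0.18 elsewhere in those tissues. Its mitochondrial share was 3.69% in kidney, against 9.60% to 12.7%, and 0.56% in thymus, against 1.64% to 1.92%. The measure of long against short transcripts also separated CMV-siRE from CMV-scrR in both tissues. It was -0.15 to -0.05 against 0.04 to 0.13 in kidney and -0.18 to -0.05 against 0.06 to 0.18 in thymus. In kidney and thymus the clock gene Dbp was higher in all CMV-siRE libraries than in all CMV-scrR libraries, at 871 to 2108 against 55.8 to 109 and at 357 to 733 against 143 to 182. In 4 tumours the Y-linked gene Ddx3y was between 330 and 422, against at most 9.6 in the other 8 tumours, and no organ library exceeded 23.

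In the control libraries the dividing tissues of the immune system had by far the highest levels of the set. The summed level per M (a column total scaled to 1 M), without mitochondrial genes, was 9010.5 ± 659 (SD, n = 4) in thymus and 6446.5 ± 856 in spleen. It was 1226.7 ± 134 in lung, 977.7 ± 165 in tumour, 698.4 ± 98.9 in kidney and 476.3 ± 37.3 in liver. The levels of lung and tumour lay within 2 SD of each other, and since the tables were scaled separately all these levels are descriptions. Thymus was the highest tissue for 39 of the 48 genes, spleen for 8 and tumour for 1. Liver was the lowest for 20, tumour for 17, kidney for 10 and thymus for 1. Mki67, the most used marker of proliferation, was at 1148 ± 26.9 per M in thymus and 668 ± 244 in spleen, but at 51.8 ± 6.40 in lung, 18.4 ± 11.8 in kidney, 14.95 ± 3.08 in liver and 11.04 ± 0.978 in tumour.

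Ccnd1 had another order, with tumour highest and thymus lowest. Its level per M was 532 ± 143 (SD, n = 4) in tumour, 292 ± 21.3 in lung, 258 ± 20.2 in kidney, 123 ± 6.99 in spleen, 95.0 ± 24.8 in liver and 22.0 ± 2.61 in thymus. Lung and kidney differed by less than the sum of their SDs, as did spleen and liver. The fold of thymus over lung had a median of 9.54 over the 48 genes and ran from 0.0756 for Ccnd1 to 22.2 for Mki67. E2f8, an E2F family repressor that hepatocytes use when they become polyploid, was another exception: its fold of lung over liver was 0.334, while the median over the set was 2.65. Per kilobase of transcript, Ccnd1 led in tumour (142 per M per kilobase), lung (78.0), liver (25.4) and kidney (68.9). Pcna, which clamps the polymerase to DNA, led in spleen (263.8) and thymus (348). The phosphatase Cdc25c was the lowest in lung (0.684), liver (0.205) and spleen (5.78), the kinetochore protein Cenpf in tumour (0.189) and kidney (0.325), and Ccnd1 in thymus (5.89).

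**Figure D1:**
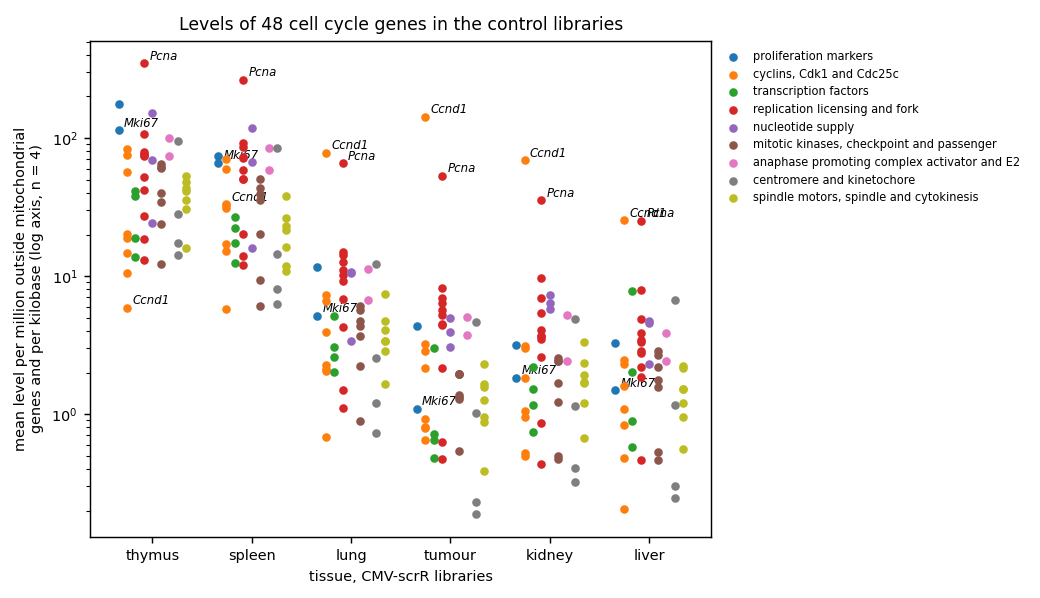
Mean level of each of the 48 genes in the 4 CMV-scrR libraries of a tissue, per M without mitochondrial genes and per kilobase of transcript on a log axis, by tissue and coloured by role. Spleen and thymus lie above the other tissues for nearly the whole set, and Ccnd1 is the lowest point in thymus and the highest in tumour.

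Within a circuit, most of these genes went up and down together from library to library. Over the 12 libraries of a tissue, the correlation of a gene's deviation from its group mean with the mean deviation of the other 47 had a median of 0.91 in lung and spleen, 0.87 in thymus, 0.69 in kidney, 0.66 in tumour and 0.64 in liver. The points share libraries and their scaling, so these are descriptions. For Ccnd1 it was -0.79 in spleen, -0.54 in thymus and -0.25 in kidney, but 0.26 in tumour, 0.39 in liver and 0.61 in lung. The spread within a circuit was wider than for most genes in lung, with a median SD of 0.57 log2 units over the set against 0.22 over all tested genes. The same pair of values was 0.64 and 0.34 in kidney, 0.46 and 0.24 in liver and 0.75 and 0.49 in tumour, but 0.29 and 0.25 in spleen and 0.39 and 0.36 in thymus. Since the 48 genes of a library move together, a count of genes that share a sign is not a count of independent observations.

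Liver, spleen and tumour held members that passed the test, which was limma on log2(value + 1) with Benjamini-Hochberg adjustment over all tested genes and a threshold of 0.05. The difference plotted is always the first circuit named minus the second.

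**Figure D2:**
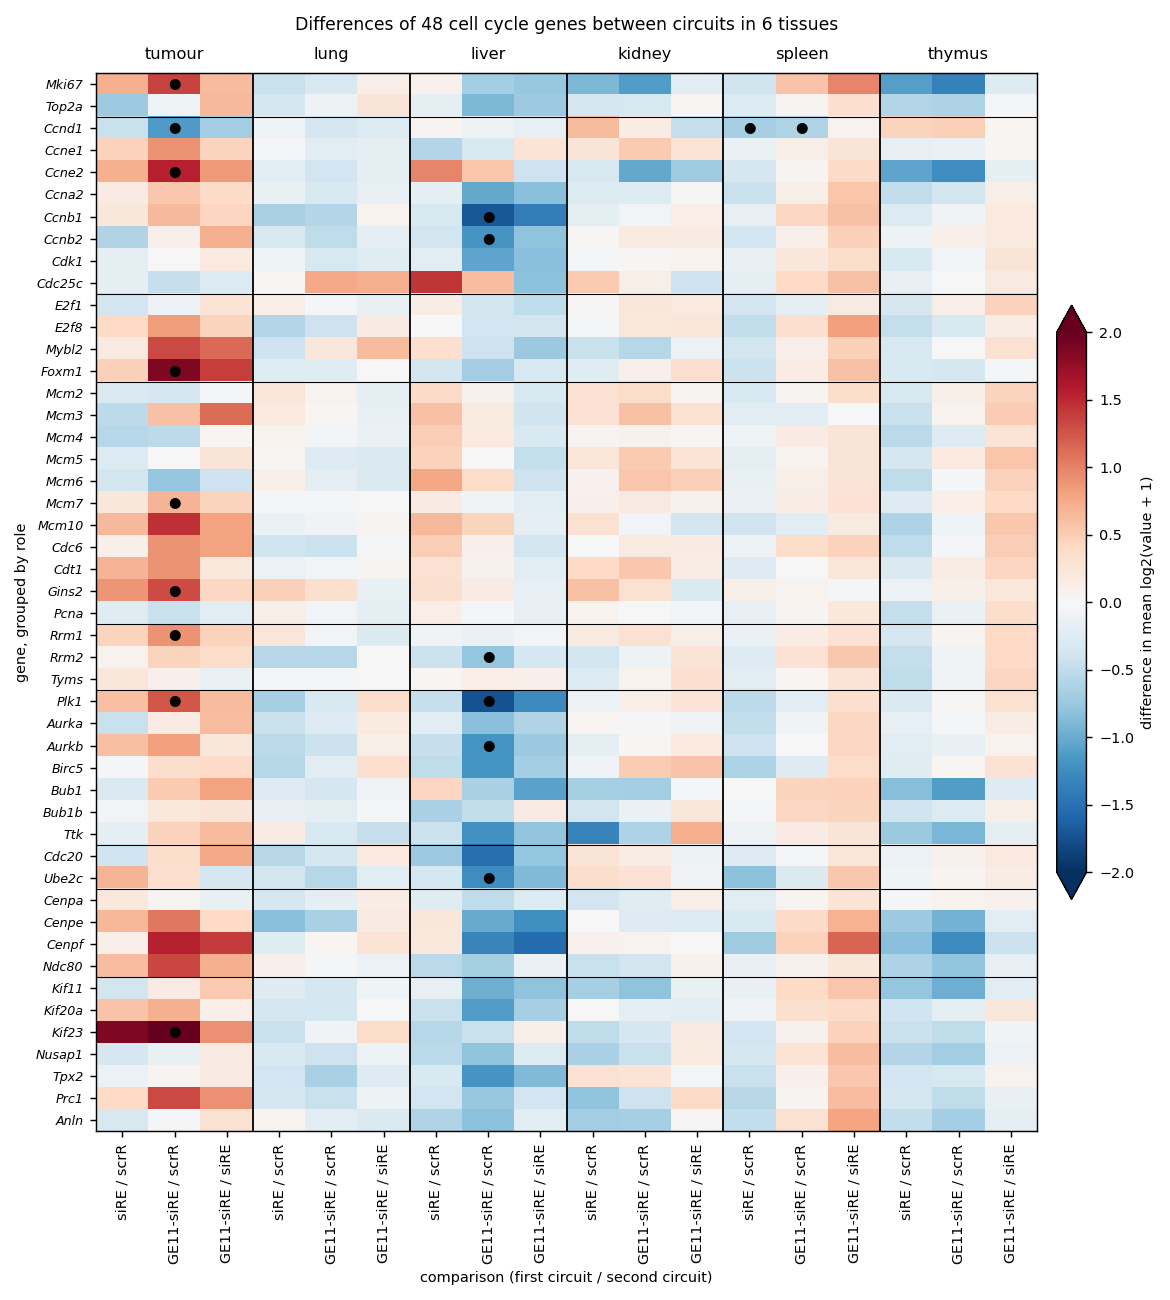
Difference in log2(value + 1) of each of the 48 genes, in rows by role, for 3 comparisons in each of 6 tissues, in columns, with a black dot where the adjusted p was under 0.05. The dots lie in liver (6 genes lower with CMV-GE11-siRE than with CMV-scrR), in tumour (8 higher and 1 lower in the same comparison) and in spleen (Ccnd1 lower with both EGFR circuits).

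In the livers of mice given CMV-GE11-siRE, 3 of the 20 members that act in mitosis, 2 cyclins and 1 of the 14 members of replication and nucleotide supply fell against CMV-scrR. Of the 48 genes 6 fell and none rose, where 2.04% of 14484 tested genes fell and 2.19% rose. The 6 were the mitotic kinases Plk1 and Aurkb, the cyclins Ccnb1 and Ccnb2 that activate Cdk1, the ubiquitin-conjugating enzyme Ube2c and Rrm2, the regulated subunit of ribonucleotide reductase. At an unadjusted p under 0.05, 23 genes were lower (10.5% of all tested genes) and 1 was higher (10.1%). The median difference over the set was -0.65, against 0.01 over all tested genes.

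Plk1, on chromosome 7 (chr7:122159439-122169873, + strand, GRCm38), which drives entry into mitosis and spindle assembly, had values of 59.3, 111, 124 and 76.4 in the CMV-scrR livers. It had 54.0, 53.1, 66.3 and 91.4 with CMV-siRE and 27.5, 21.03, 21.3 and 37.0 with CMV-GE11-siRE. All 4 CMV-GE11-siRE livers lay below all 8 others. Against CMV-scrR, Plk1 fell by 1.74 ± 0.28 (log2, SE; limma adjusted p = 0.00679).

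Ccnb1, cyclin B1 (chr13:100778650-100786570, - strand), had 62.8, 107, 66.2 and 69.4 with CMV-scrR, then 39.8, 71.5, 47.4 and 94.0 with CMV-siRE and 12.5, 27.6, 20.8 and 34.0 with CMV-GE11-siRE. Again the 4 CMV-GE11-siRE livers were the lowest 4 of the 12. Ccnb1 fell by 1.69 ± 0.34 (limma adjusted p = 0.0146). Ccnb2, cyclin B2, had 58.0 to 94.1 with CMV-scrR, 32.2 to 83.4 with CMV-siRE and 24.2 to 39.8 with CMV-GE11-siRE. It fell by 1.18 ± 0.28 (limma adjusted p = 0.0345). Both cyclins have a pseudogene named after them, so reads may be shared.

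Ube2c, which builds ubiquitin chains for the anaphase promoting complex, had 79.0, 164, 83.0 and 87.8 with CMV-scrR and 27.9, 42.4, 38.1 and 62.8 with CMV-GE11-siRE, without overlap. It fell by 1.24 ± 0.31 (limma adjusted p = 0.0386), and its exons overlap those of Tnnc2 on the opposite strand by 592 bases. Aurkb, the kinase of the chromosomal passenger complex, fell by 1.19 ± 0.30 (limma adjusted p = 0.0401), from 84.3, 112, 145 and 59.4 to 59.4, 47.7, 34.7 and 28.6, so that 1 library of each group met at 59.4. Rrm2 fell by 0.78 ± 0.19 (limma adjusted p = 0.0396), from 167 to 239 with CMV-scrR to 91.5 to 141 with CMV-GE11-siRE.

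The 20 members that act in mitosis itself (kinases and checkpoint, anaphase promoting complex, kinetochore, spindle and cytokinesis) all had a negative difference, between -1.74 and -0.44, with a median of -0.99. Of these 20, 16 were lower at an unadjusted p under 0.05. The kinases and checkpoint genes had a median of -1.19, the 2 anaphase promoting complex genes -1.37, the 4 kinetochore genes -0.84 and the 7 spindle and cytokinesis genes -0.82. Cdc20, the activator of the anaphase promoting complex, came close to the threshold, with 62.2, 252, 100 and 127 against 29.3, 30.0, 54.5 and 60.4, a difference of -1.50 ± 0.41 (limma adjusted p = 0.0549). Cenpf was at -1.32 ± 0.45 (limma adjusted p = 0.116), Cdk1 at -1.05 ± 0.31 (0.0696), Foxm1 at -0.69 ± 0.41 (0.362) and Mki67 at -0.67 ± 0.21 (0.0939). Mki67 had 231, 367, 316 and 240 with CMV-scrR, 217, 285, 330 and 397 with CMV-siRE and 170, 155, 151 and 248 with CMV-GE11-siRE. In all, 16 genes had every CMV-GE11-siRE liver below every CMV-scrR liver, against 5.68% of all tested genes.

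The 11 replication licensing and fork genes had a median of 0.11, and 8 of them were positive. Mcm2, a helicase subunit, was at 0.09 ± 0.23, Mcm6 at 0.36 ± 0.23 and Pcna at -0.03 ± 0.11. E2f1 was at -0.36 ± 0.20 and Ccne1, the cyclin of S phase entry, at -0.32 ± 0.49, and neither passed. Ccnd1 was at -0.10 ± 0.23. The difference between the mitotic and the replication members was not tested.

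Genes of the same pathways outside the set were counted in the same way. Of 38 other mitosis genes 6 fell and none rose, with a median of -0.68 and 36 of 38 negative: the kinetochore subunit Nuf2 (-1.60), the cytokinesis regulators Racgap1 (-1.34) and Ect2 (-1.22) and the spindle protein Ckap2l (-1.31) fell most. Of 24 other replication genes none passed, 11 were positive and the median was -0.02. Of 13 pocket protein, E2F and MuvB genes Rb1, the retinoblastoma protein, rose by 1.00 ± 0.25 (limma adjusted p = 0.0386) and no other passed. No CDK inhibitor passed, with Cdkn1a at -0.47 ± 0.29 (limma adjusted p = 0.382).

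**Figure D3:**
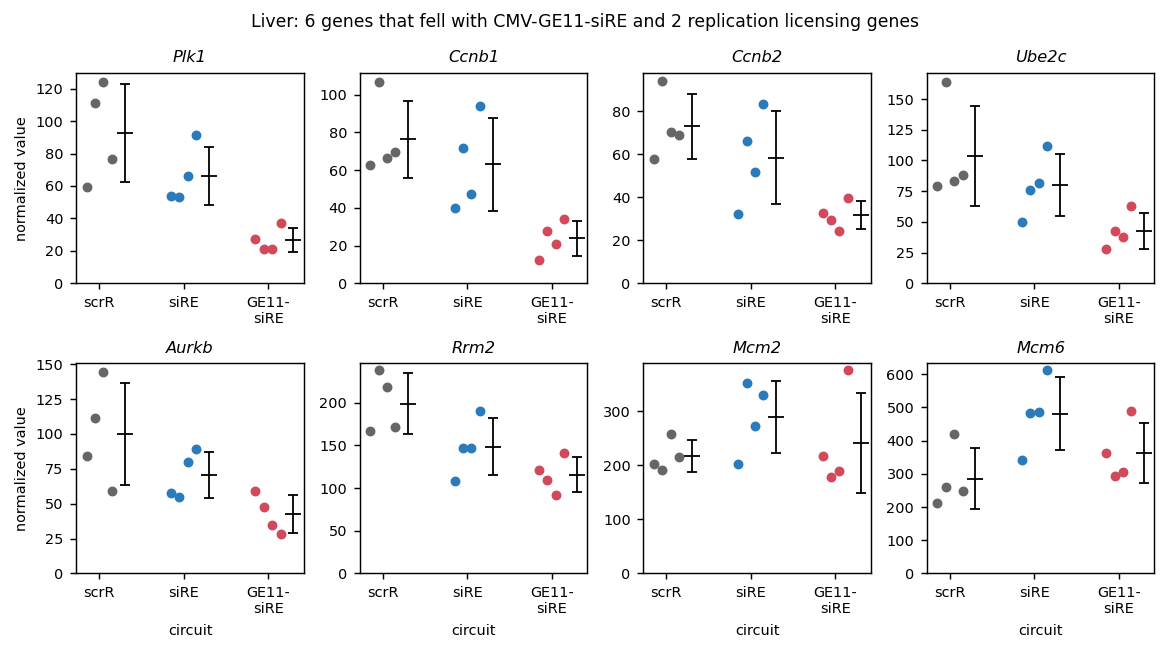
Values of 8 genes in the 12 livers (normalised value, linear axis from 0), by circuit, with each library as a point and the mean ± SD of 4 libraries as a bar. Every CMV-GE11-siRE liver lies below every CMV-scrR liver for Plk1, Ccnb1, Ccnb2, Ube2c and Rrm2, the groups meet at 1 library each for Aurkb, and those of the helicase genes Mcm2 and Mcm6 overlap.

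The promoters of the genes that fell in liver are printed because this class of promoter has known elements. Sequences are the 120 bases before the RefSeq gene start (GRCm38.p6), 5′ to 3′ on the gene's strand, and capitals mark matches on either strand to 3 kinds of letters: CCAAT, which binds NF-Y; the cell cycle genes homology region (TTTGAA or TTCGAA), which binds MuvB; and E2F letters (TTTCCCGC, TTTGGCGC, TTTCGCGC or TTTGCCGC). Mcm6 and Mcm5, which were not lower in liver, are given for comparison. Mcm6 is not typical of the replication genes here. Of 38 members whose promoters were found, it was the only 1 with E2F letters in these 120 bases, where 1.37% of protein-coding genes had them.
Plk1 (chr7:122159315-122159434, + strand): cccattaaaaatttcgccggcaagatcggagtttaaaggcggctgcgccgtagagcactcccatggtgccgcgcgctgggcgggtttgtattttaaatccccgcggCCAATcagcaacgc
Ccnb1 (chr13:100786487-100786606, - strand): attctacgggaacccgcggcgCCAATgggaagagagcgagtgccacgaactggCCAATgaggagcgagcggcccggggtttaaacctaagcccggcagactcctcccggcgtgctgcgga
Ccnb2 (chr9:70421555-70421674, - strand): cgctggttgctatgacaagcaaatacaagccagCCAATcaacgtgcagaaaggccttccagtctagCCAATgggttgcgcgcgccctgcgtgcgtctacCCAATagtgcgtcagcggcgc
Ube2c (chr2:164769809-164769928, + strand): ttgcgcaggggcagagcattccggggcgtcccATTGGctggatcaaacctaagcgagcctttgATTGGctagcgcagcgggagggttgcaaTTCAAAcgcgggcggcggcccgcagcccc
Rrm2 (chr12:24708134-24708253, + strand): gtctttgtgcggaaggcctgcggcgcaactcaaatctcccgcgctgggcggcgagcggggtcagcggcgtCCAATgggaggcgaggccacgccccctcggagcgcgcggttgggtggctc
Mcm6 (chr1:128359706-128359825, - strand): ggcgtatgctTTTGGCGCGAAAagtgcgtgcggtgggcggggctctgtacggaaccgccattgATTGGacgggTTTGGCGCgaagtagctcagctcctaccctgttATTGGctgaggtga
Mcm5 (chr8:75109389-75109508, + strand): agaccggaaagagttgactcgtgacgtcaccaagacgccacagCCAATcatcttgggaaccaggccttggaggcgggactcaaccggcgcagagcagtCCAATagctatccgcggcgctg

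Promoters of 38 of the 48 genes were found in the RefSeq table, and those of Aurkb, Ccnd1, Foxm1, Gins2, Ccne2, Ccna2, Cdc25c, Kif20a, Mcm4 and Tpx2 were not. In the 250 bases before the start, CCAAT was present in 28 of the 38 (73.7%), against 39.5% of 17492 protein-coding genes. The homology region letters were present in 12 (31.6%), against 18.4%, and each of those 12 also held CCAAT, a pair found in 6.83% of protein-coding genes. E2F letters were present in 5 (13.2%), against 2.72%. CCAAT was as frequent in the 17 mitosis genes (76.5%) as in the 12 genes of replication and nucleotide supply (75.0%), while E2F letters were in 0 and 4 of them. Letters that match are a description of these windows and show no binding.

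The liver count changed with single libraries. Plk1 and Ccnb1 passed in each of 7 other settings and without each of the 8 libraries in turn. With 1 library left out, the count was 2 or 3 for CMV-scrR replicates 2, 3 and 4 and for CMV-GE11-siRE replicates 1, 2 and 3, and 8 for CMV-GE11-siRE replicate 4. Among markers, C1qa of macrophages was at -0.59 and the only 1 of 5 that passed, with a summed level of 9419 to 17661 with CMV-scrR, 7534 to 15945 with CMV-siRE and 8755 to 11408 with CMV-GE11-siRE. In endothelium Kdr passed (0.63), and in hepatocytes Cyp3a11 (0.71). None of the macrophage, endothelium or hepatocyte markers was at 0 in a group, and their part in the result was not tested.

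Between CMV-GE11-siRE and CMV-siRE livers no member passed (0.0069% of all tested genes were lower and 0% higher). The difference was negative for 44 of the 48, with a median of -0.41, and at an unadjusted p under 0.05 there were 17 lower (3.82% of all genes) and 0 higher (3.84%). Plk1 was at -1.28 ± 0.28 (limma adjusted p = 0.297), Ccnb1 at -1.38 ± 0.34 (0.361) and Cenpf at -1.54 ± 0.45 (0.474), and in these 3 and Aurka all CMV-GE11-siRE livers lay below all CMV-siRE livers (2.2% of all genes). Between CMV-siRE and CMV-scrR no member passed either, where 2.06% of all genes rose and 1.97% fell. There the 11 replication genes were all positive, with a median of 0.46, and Mcm6 at 0.77 ± 0.23 came closest (limma adjusted p = 0.0744). The mitosis members had a median of -0.44, and 6 members were higher (9.86%) and 3 lower (10.1%) at an unadjusted p under 0.05. Both comparisons with the control share the 4 CMV-scrR livers.

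In the tumours given CMV-GE11-siRE, 8 of the 48 genes rose and Ccnd1 fell against CMV-scrR. In that comparison 22.1% of 14044 tested genes rose and 19.8% fell, so neither count of members is above the background. The genes that rose were Kif23, Foxm1, Ccne2, Mki67, Gins2, Plk1, Rrm1 and Mcm7. The median over the set was 0.49, against 0.05 over all genes, with 36 of 48 positive.

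Kif23 (chr9:61915905-61946774, - strand), a motor of the central spindle needed for cytokinesis, moved most. It had 17.1, 16.04, 23.0 and 70.1 with CMV-scrR, 173, 92.6, 73.3 and 76.2 with CMV-siRE and 269, 203, 107 and 193 with CMV-GE11-siRE. All 8 tumours given an EGFR circuit lay above all 4 controls. Every CMV-GE11-siRE tumour lay above every control for 6 members and for 3328 of 14044 tested genes. Every one lay below for 1 member and for 3013 genes. With CMV-siRE against CMV-scrR, 1 member and 568 genes lay above in this way. Kif23 rose by 2.78 ± 0.46 (log2, SE; limma adjusted p = 0.000871) with CMV-GE11-siRE, and its difference of 1.87 ± 0.46 with CMV-siRE did not pass (0.0660).

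Foxm1 (chr6:128362967-128376146, + strand), the transcription factor of the mitotic wave, had 19.4, 24.02, 46.2 and 26.3 with CMV-scrR, 62.6, 51.9, 23.8 and 28.5 with CMV-siRE and 121, 133, 65.3 and 105 with CMV-GE11-siRE. It rose by 1.86 ± 0.40 (limma adjusted p = 0.00288), and the CMV-GE11-siRE tumours lay above the 8 others. Mki67 (chr7:135689784-135716361, - strand) rose by 1.35 ± 0.40 (limma adjusted p = 0.0152), from 91.5, 85.3, 109 and 129 to 286, 288, 112 and 514, with 117, 277, 136 and 183 under CMV-siRE, so that CMV-GE11-siRE replicate 3 lay within the control range. Plk1 rose by 1.24 ± 0.44 (limma adjusted p = 0.0348), from 14.8 to 48.1 to 33.1 to 98.1, and these groups overlapped.

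Among genes of S phase, the cyclin Ccne2 rose by 1.56 ± 0.44 (limma adjusted p = 0.0123), Gins2, a subunit of the replicative helicase, by 1.30 ± 0.33 (0.00718), Rrm1, the large subunit of ribonucleotide reductase, by 0.91 ± 0.26 (0.0139) and Mcm7 by 0.68 ± 0.25 (0.0409). Gins2 shares 2758 bases of exon with Gse1 on the opposite strand, and reads of the 2 genes cannot be told apart without strand. Of the 14 members of replication and nucleotide supply 5 had a negative difference, down to -0.78. Among the members that did not pass, Mcm2 was at -0.34, Pcna at -0.45, E2f1 at -0.11, Cdk1 at -0.01 and Top2a, the topoisomerase that untangles chromosomes, at -0.08. Ccnb1 (0.65), Rrm2 (0.45), Cdc20 (0.35), Ccne1 (0.90) and Cenpf (1.54, limma adjusted p = 0.0640) did not pass.

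Ccnd1 (chr7:144929931-144939925, - strand) fell by 1.13 ± 0.34 (limma adjusted p = 0.0170). It had 4019, 5643, 5953 and 3968 with CMV-scrR, 2538, 4798, 5553 and 2327 with CMV-siRE and 2407, 3500, 2171 and 1275 with CMV-GE11-siRE, without overlap between the last group and the control. Its exons overlap those of LTO1 on the opposite strand by 1100 bases. The direction of Ccnd1 depended on the scaling of the tumour table. It was -0.37 on a common total without mitochondrial genes and 0.96 on a common column total, and a fit that took in the mitochondrial share gave 0.19.

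The other tumour counts depended on the scaling as well. On a common column total 47 of the 48 were higher and none lower, with a median of 2.53 where the median of all genes was 2.13 and 80.4% of all genes were higher. On a common total without mitochondrial genes 21 were higher and none lower, with a median of 1.23 where the median of all genes was 0.81 and 43.1% were higher. In the fit that took in the mitochondrial share as a covariate, no gene of the whole table passed and the median of the set was 1.22. The circuit and the mitochondrial share cannot be told apart in these tumours. Kif23 and Foxm1, with the largest differences among the members that rose, were above the median of all genes under each scaling. They were at 4.84 and 3.92 on a common column total and at 3.52 and 2.61 without mitochondrial genes. With the share as a covariate they were at 2.07 and 1.22. A rescaling shifts all genes by nearly the same amount, and these 2 were picked for their size, so this is no separate support.

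**Figure D4:**
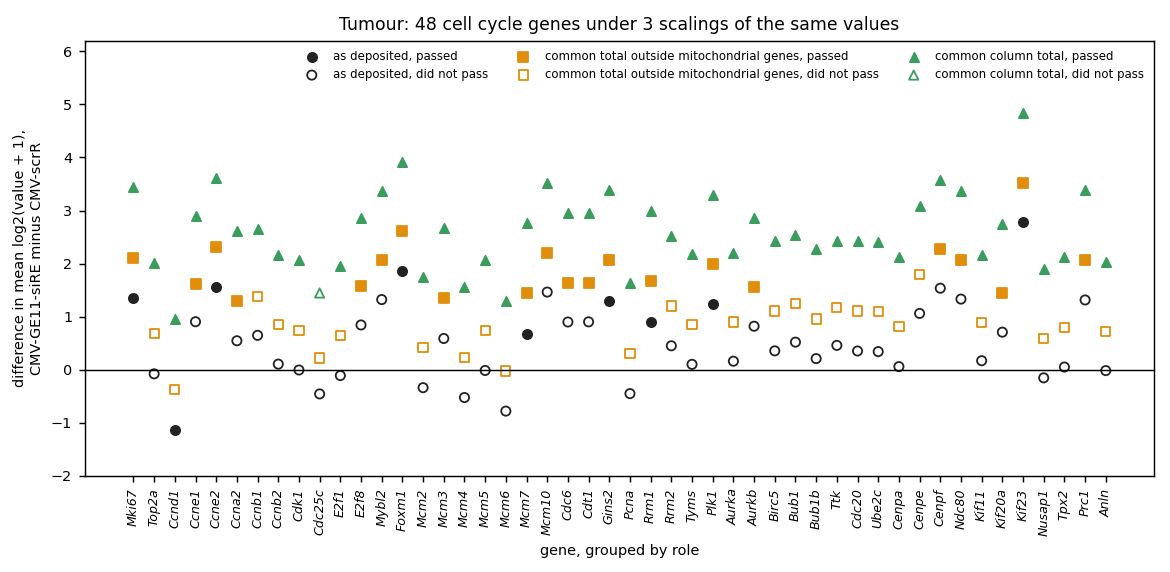
Difference of CMV-GE11-siRE from CMV-scrR tumours in log2(value + 1) for each of the 48 genes under 3 scalings (values as deposited, common total without mitochondrial genes, common column total), with filled points where the adjusted p was under 0.05. The 3 series of points are shifted by a nearly constant amount, so that 8, 21 and 47 genes are called higher, and Ccnd1 crosses 0.

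The other genes of the pathways were called both ways in the tumour comparison, in shares to be read against the 22.1% of all genes that rose and the 19.8% that fell. Of 38 other mitosis genes 8 rose and 1 fell, led by the motor Kif15 (2.84) and separase, Espl1 (2.84). Of 24 other replication genes 6 rose and 1 fell, among them thymidine kinase Tk1 (2.16) and the origin-firing kinase Cdc7 (2.08). Of 13 other cyclins, CDKs and regulators 4 rose, such as the inhibitory kinase Pkmyt1 (2.75), while the G1 kinase Cdk6 (-2.16) and Ccnd2 (-1.86), a second cyclin D, fell. Of 7 CDK inhibitors Cdkn2c (-1.26) and Cdkn1c (-1.22) fell. Markers of cell types moved too, and the summed levels of 6 of 20 marker lists separated the CMV-GE11-siRE tumours from the controls. All 5 alveolar type 2 markers rose, with a summed level of 47634 to 124860 with CMV-scrR, 110450 to 666710 with CMV-siRE and 325240 to 521810 with CMV-GE11-siRE. Of 5 macrophage markers 2 fell (1112 to 2789, 862 to 1533 and 1021 to 1473), and of 4 endothelial markers 1 fell (1406 to 4967, 1364 to 3149 and 1305 to 2243). No marker of these 3 lists was at 0 in a group. The plasma cell list was higher with CMV-GE11-siRE than with CMV-scrR (3827 to 10312 against 1236 to 2750, 2 of 4 passed), as were the lists of germinal centre B cells (295 to 357 against 63.4 to 134, 1 of 3), alveolar type 1 cells (17748 to 24874 against 11172 to 17550, 2 rose and 1 fell of 4) and proximal tubule (568 to 959 against 181 to 478, 1 of 3). The hepatocyte list was lower (2.27 to 6.501 against 68.9 to 943, 2 of 4), with Cyp3a11 at 0 in all 4 CMV-GE11-siRE tumours, as was Slc22a6 of the proximal tubule. The part of these lists in the result was not tested.

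No member passed between CMV-siRE and CMV-scrR tumours, where 0.221% of genes rose and 0.0356% fell. None passed between CMV-GE11-siRE and CMV-siRE either (0.00712% and 0.0142%), and the medians over the set were 0.12 and 0.42. At an unadjusted p under 0.05, 2 and 3 members were higher in these 2 comparisons, where 12.1% and 12.7% of all genes were, and none was lower, where 9.29% and 13.5% were. On a common column total 46 of the 48 were higher in the second of these comparisons, where 75% of all genes were, and 4 on the total without mitochondrial genes, where 12.9% were.

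In the spleen Ccnd1 fell with both EGFR circuits. It had 2623, 2293, 2317 and 2418 with CMV-scrR, 1500, 1563, 1538 and 1462 with CMV-siRE and 1559, 1412, 1630 and 1809 with CMV-GE11-siRE. Every library of either EGFR circuit lay below every control. In this way 8 members and 1131 of 16015 tested genes lay below with CMV-siRE, and 1 member and 1180 genes with CMV-GE11-siRE. Ccnd1 fell by 0.67 ± 0.09 (log2, SE; limma adjusted p = 0.00123) with CMV-siRE and by 0.59 ± 0.09 (0.00620) with CMV-GE11-siRE, and differed by 0.08 between these 2 circuits. It was the only member called in either comparison, where 2.88% and 3.47% of all genes fell and 1.73% and 2.29% rose. Both comparisons share the 4 control spleens. Neither call was made with the mitochondrial share as a covariate.

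No other member passed in the spleen. With CMV-siRE against CMV-scrR, 47 of the 48 were negative, with a median of -0.27, and 13 were lower at an unadjusted p under 0.05 (11.1% of all genes), of which Ube2c at -0.82 ± 0.24 (limma adjusted p = 0.0649) and Plk1 at -0.53 ± 0.18 (0.113) came closest to passing after Ccnd1. With CMV-GE11-siRE against CMV-scrR, 37 were positive, with a median of 0.10. Between CMV-GE11-siRE and CMV-siRE, 46 were positive and 22 were higher at an unadjusted p under 0.05 (5.66%), but none passed, where 0.0937% of all genes rose and 0.0187% fell. Mki67 had 8324, 19661, 13653 and 10880 with CMV-scrR, 12321, 10680, 8758 and 6851 with CMV-siRE and 17884, 19654, 24268 and 13824 with CMV-GE11-siRE. The CMV-GE11-siRE spleens lay above the CMV-siRE spleens, and the controls overlapped both (0.98 between the 2 EGFR circuits, limma adjusted p = 0.211). Cenpf was at 1.17 (0.161). Every CMV-GE11-siRE spleen lay above every CMV-siRE spleen for 6 members and for 466 of 16015 tested genes.

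Summed red cell markers in the spleen were lowest with CMV-siRE. The 8 erythroid markers had a summed level of 315850 to 478460 with CMV-scrR, 54384 to 130440 with CMV-siRE and 196050 to 411010 with CMV-GE11-siRE. Of the 8, 4 fell with CMV-siRE against CMV-scrR, such as Alas2 of haem synthesis (-2.33), and 3 rose with CMV-GE11-siRE against CMV-siRE, such as Alas2 (1.92). The 5 markers of early erythroid progenitors, which divide, summed to 12227 to 23877, 7915 to 12730 and 8988 to 22504, and none of them passed. No erythroid marker was at 0 in a group. Other lists of the 20 separated spleens too. Plasma cell (21007 to 28555 against 8909 to 19358) and proximal tubule lists were higher with CMV-siRE than with CMV-scrR. Alveolar type 1, endothelium and fibroblast lists were lower with CMV-GE11-siRE than with CMV-scrR. The proximal tubule list was lower with CMV-GE11-siRE than with CMV-siRE. The part of these marker lists in the result was not tested. Among CDK inhibitors Cdkn1a, p21, fell with both circuits, by 0.60 (limma adjusted p = 0.0261) with CMV-siRE and by 1.00 (0.00416) with CMV-GE11-siRE. Its values were 309 to 385 with CMV-scrR, 180 to 251 with CMV-siRE and 161 to 182 with CMV-GE11-siRE. Ccnd2 fell by 0.48 (0.0453) with CMV-siRE.

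**Figure D5:**
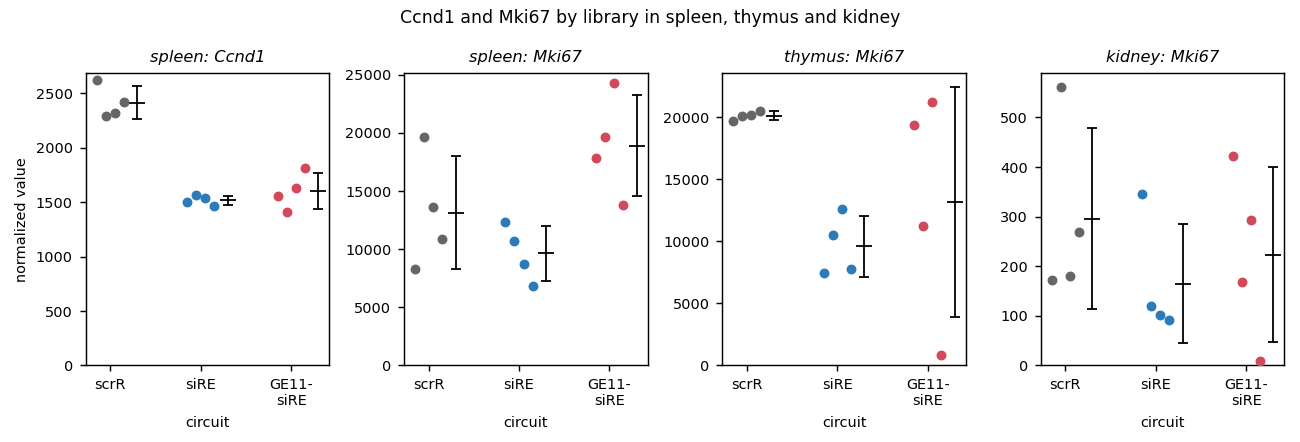
Values of Ccnd1 in spleen and of Mki67 in spleen, thymus and kidney (normalised value, linear axis from 0) for 12 libraries a tissue, by circuit, with each library as a point and the mean ± SD of 4 as a bar. Ccnd1 separates the control spleens from the rest, Mki67 is lower in all 4 CMV-siRE thymuses than in the controls, and CMV-GE11-siRE replicate 4 lies far below the others in thymus and kidney.

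In the thymus no member passed in any comparison with all 12 libraries, and the outcome for CMV-siRE turned on 1 library of another group. With CMV-siRE against CMV-scrR, 47 of the 48 were negative, with Ccnd1 at 0.44 and a median of -0.40, where 0% of genes rose and 0.00609% fell. The count at an unadjusted p under 0.05 was 2 lower (2.56%) and 0 higher (3.09%). Mki67 had 19681, 20103, 20234 and 20519 with CMV-scrR, 7457, 10558, 12627 and 7751 with CMV-siRE and 19383, 11252, 21237 and 826 with CMV-GE11-siRE. The CMV-siRE thymuses were all below the controls, and the value of 826 belongs to CMV-GE11-siRE replicate 4. The difference of Mki67 was -1.10 ± 0.78 (log2, SE; limma adjusted p = 0.699). Cenpf had 2676 to 2850 with CMV-scrR and 1225 to 1879 with CMV-siRE, and 9 genes of the set separated in this way, where 11.2% of all genes did.

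Without CMV-GE11-siRE replicate 4, whose spread enters the shared error, 13 of the 48 were lower with CMV-siRE than with CMV-scrR, where 7.97% of all tested genes were lower. Mki67 was then at -1.10 ± 0.19 (limma adjusted p = 0.00578), Cenpf at -0.84 (0.00812), the kinetochore motor Cenpe at -0.72 (0.00301), Top2a at -0.58 (0.0218) and Ccne2 at -1.06 (0.0235). The other 8 were Bub1, Kif11, Ttk, Ndc80, Nusap1, Ccna2, Kif23 and Prc1, between -0.85 and -0.35. Each of the 13 was also at least 1 log2 unit lower in CMV-GE11-siRE replicate 4 than in the rest of its group, as were 19 of the 48 in all. The same count over all tested genes was not made. In the whole fit the median difference was -0.25 in the 16 members with the shortest transcripts, -0.42 in the middle class and -0.50 in the 16 longest. Long against short transcripts also separated CMV-siRE from CMV-scrR, as given above, and the part of length in the result was not tested. A fit of only the 8 libraries compared gave 12 lower, where 7.71% of all genes were, and a fit of all 12 libraries that took in the mitochondrial share gave 17, where 11.4% were. In the whole fit the 14 genes of replication and nucleotide supply were negative as well, with a median of -0.46, with Mcm2 at -0.33 and Pcna at -0.48. All 24 other replication genes and 37 of 38 other mitosis genes were negative, and none passed. Dbp was higher in the same CMV-siRE thymuses, as given above, and no member passed in the 12 libraries with it as a covariate. The summed immature thymocyte markers were 125190 to 150740 with CMV-scrR, 95345 to 140180 with CMV-siRE and 93520 to 124400 with CMV-GE11-siRE. None was at 0, and the last group lay wholly below the controls. The T cell list was the only 1 of 20 that separated CMV-siRE from CMV-scrR, at 26448 to 28300 against 23351 to 26291. Against CMV-scrR, CMV-GE11-siRE also separated on the neutrophil list (above) and the alveolar type 2 list (below). The part of these lists in the result was not tested.

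In the thymus with CMV-GE11-siRE no member passed against CMV-scrR or CMV-siRE, and in neither did any gene of the table pass. At an unadjusted p under 0.05, 0 members were higher (3.91%) and 0 lower (5.53%) against CMV-scrR, and 4 higher (1.25%) and 0 lower (1.56%) against CMV-siRE. When the fit took in the mitochondrial share, Mki67, Ccne2, Cenpe and Cenpf were lower than with CMV-scrR, where 4.04% of all genes were. CMV-GE11-siRE replicate 4 differed from the other 3 libraries of its group. Of the 48 genes 19 were at least 1 log2 unit lower in it. All tested genes were not counted in this way, so the count cannot be read as particular to the set. The 16 members with the shortest transcripts had a median of -0.38 and the 16 longest -1.15, and all tested protein-coding genes, cut by length into 3 classes, had 0.43 in the shortest class and -0.49 in the longest. Both length classes of members were spread widely, from -3.36 to 0.08 in the shortest and from -4.33 to 0.92 in the longest. Mki67, with 10061 bases of transcript, was at -4.33, and Ndc80, with 2201, at -3.36, while Plk1, with 2199, was at -0.10 and Mcm6, with 4355, at -0.25. At least 1 log2 unit lower were 3 of the 16 shortest and 8 of the 16 longest.

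In the kidney no member passed, nor did any of 15105 tested genes in any of the 3 comparisons. At an unadjusted p under 0.05, 1, 2 and 1 members were higher with CMV-siRE against CMV-scrR, CMV-GE11-siRE against CMV-scrR and CMV-GE11-siRE against CMV-siRE, where 5.12%, 4.23% and 2.14% of all genes were, and none was lower, where 4.72%, 3.83% and 1.82% were. Ccnd1 had 4265, 3618, 4329 and 4521 with CMV-scrR, 6525, 5784, 7374 and 6217 with CMV-siRE and 3469, 6401, 3189 and 6561 with CMV-GE11-siRE. All CMV-siRE kidneys lay above the controls, as they did for 3 members in all and for 1249 of 15105 tested genes, while 1519 genes lay below. The CMV-GE11-siRE kidneys divided for Ccnd1 into 2 below the controls and 2 at the CMV-siRE level. The difference of Ccnd1 was 0.63 ± 0.22 for CMV-siRE against CMV-scrR (log2, SE; limma adjusted p = 0.449). Dbp divided the CMV-GE11-siRE kidneys in the same way, at 78.8, 1321, 52.9 and 790 in replicates 1 to 4, and with Dbp as a covariate no member passed either.

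Mitotic genes varied widely within each kidney group. Mki67 had 172, 562, 180 and 270 with CMV-scrR, 345, 120, 102 and 92.1 with CMV-siRE and 423, 168, 293 and 9.30 with CMV-GE11-siRE. CMV-scrR replicate 2 and CMV-siRE replicate 1 were high for several mitotic genes: Cenpf was 152 and 375 in them, against 17.8 to 30.0 in the other 6 libraries of these groups. CMV-GE11-siRE replicate 4 was low, with 17 of the 48 at least 1 log2 unit below the other 3 libraries of its group. All tested genes were not counted in this way. There the 16 shortest members had a median of -0.30 and the 16 longest -0.58, where the shortest and longest classes of all protein-coding genes had 0.38 and -0.49.

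In the lung outside the tumour no member passed in any comparison. With CMV-siRE against CMV-scrR 0.483% of 16165 genes rose and 0.928% fell, and 35 of the 48 members were negative, with a median of -0.24. Ccnb1 had 170, 216, 201 and 189 with CMV-scrR, 121, 128, 127 and 115 with CMV-siRE and 234, 74.4, 248 and 63.3 with CMV-GE11-siRE. The CMV-siRE lungs were all below the controls, at -0.65 ± 0.37 (log2, SE; limma adjusted p = 0.383), and the same held for Aurkb and for 7.13% of all genes. Summed erythroid markers were lower in the CMV-siRE lungs too, at 6758 to 11019 against 20797 to 27067 with none at 0. The endothelium and germinal centre B cell lists also lay below the controls, and the hepatocyte list above. The part of these marker lists in these values was not tested. The CMV-GE11-siRE lungs divided into replicates 1 and 3, which were high, and 2 and 4, which were low. Mki67 was 1622 and 1962 in the first pair and 416 and 353 in the second, against 868 to 1179 with CMV-scrR and 530 to 973 with CMV-siRE. Plk1 was 336 and 434 against 105 and 101. With CMV-GE11-siRE no gene of the lung table passed against CMV-scrR, and against CMV-siRE 0.0433% rose and 0.0186% fell, none of them a member. At an unadjusted p under 0.05, CMV-siRE against CMV-scrR had 1 member higher (7.7%) and 1 lower (9.92%), CMV-GE11-siRE against CMV-scrR 0 higher (3.63%) and 1 lower (4.27%), and CMV-GE11-siRE against CMV-siRE 0 higher (5.17%) and 0 lower (4.81%).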

How the data were processed

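RNA sequencing of 72 libraries gave 6 tables, 1 per tissue. Per the labels, total RNA was extracted with TRIzol and libraries were made with a TruSeq RNA kit. The deposited values are signal: gene counts that the authors divided by size factors, each tissue on its own. DESeq2 is named in the submitters' processing notes with no version or role, and for the aligner, the counter and the build these sources give no name. Read counts could not be recovered, so limma replaced the planned count test. Of 36047 identifiers, 35968 matched GENCODE M21 (GRCm38), which gave symbols, coordinates and lengths. Promoters are from RefSeq.

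For each tissue, limma 3.58.1 in R 4.3.3 (limma-trend) was fitted to log2(value + 1) of genes that reached 10 in 4 or more of the 12 libraries. The fit held 1 mean per circuit, and the Benjamini-Hochberg adjustment covered all tested genes, with a threshold of 0.05. Fold changes on this scale understate those of low genes. Nothing in the labels says that libraries of a group are separate animals, so p-values measure the spread between these libraries, which may be technical. The code was tested on simulated data.

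The 48 members, their 9 roles, 5 pathway lists and 20 marker lists were chosen with earlier results of these data known. Named by rule are 14 anchor genes, the 8 members that passed with the largest difference in a comparison, up to 4 passing genes of each pathway list, and markers. Other members and genes named, those listed as not overlapping among them, were chosen after their values were seen. Of the members, 15 overlap exons of another gene and 4 have a pseudogene named after them, and the kit does not mark strand. Alternatives were a pseudocount of 0.1, no filter, only the 8 libraries compared, a replicate block, 2 other scalings, the mitochondrial share as a covariate and leaving out each library. Added after seeing the data were covariates for Ddx3y (tumour) or Dbp (kidney and thymus), and kidney and thymus fits that left CMV-GE11-siRE replicate 4 out.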

Additional observations from a re-analysis of the deposited data

Results flagged for a closer look

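In 14 members and the mean of the set, 270 groups of 4 libraries were examined for a library far from its 3 neighbours, of which chance flags about 1 in 20, and 19 were found. In kidney 9 of them fell in 2 libraries. CMV-scrR replicate 2 was high for Ccnb1 (136), Cdk1 (101) and Cenpf (152). CMV-siRE replicate 1 was high for Mki67 (345), Ccnb1 (159), Plk1 (206), Cdc20 (291), Cenpf (375) and the mean of the set (7.40 log2). In lung, CMV-scrR replicate 1 was low for Cdk1 (92.8), and CMV-siRE replicate 1 for Mcm2 (562) and Cenpf (96.0). In liver, CMV-scrR replicate 2 was high for Ccnb1 (107), and the value of CMV-scrR replicate 4 for Pcna was 697. Cdc20 was 43.8 in CMV-GE11-siRE tumour replicate 3, against 133 to 151 in the other 3. Foxm1 was 1085 in CMV-GE11-siRE spleen replicate 4. In thymus, Top2a was 17484 in CMV-scrR replicate 4, Mcm2 3804 in CMV-GE11-siRE replicate 2 and Cdc20 3403 in CMV-GE11-siRE replicate 3.

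In 6 cases, all libraries of one circuit lay on one side of the other circuit's libraries in one tissue and on the opposite side in another, and the difference between the tissues was not tested. Over 3 comparisons and all pairs of tissues these are 6 of 2160 pairings of a member with a pair of tissues (0.278%), where the share over all genes tested in both tissues was 0.676%. Ccnd1 with CMV-siRE against CMV-scrR was at 0.63 in kidney and -0.67 in spleen. Cenpf with CMV-GE11-siRE against CMV-siRE was at 1.17 in spleen and -1.54 in liver. With CMV-GE11-siRE against CMV-scrR, Foxm1 was at 1.86 in tumour and -0.69 in liver, and Kif23 at 2.78 and -0.44. With CMV-siRE against CMV-scrR, Kif23 was at 1.87 in tumour, against -0.56 in liver and -0.44 in thymus.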

How the results depend on the processing

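Of 137 counts of called members under another setting, 119 were within 1.5 times the count reported and 18 were not. For CMV-GE11-siRE against CMV-scrR in tumour, where 9 members passed, the count was 47 on a common column total, 21 on the total without mitochondrial genes and 0 once the mitochondrial share was a covariate. Between the EGFR circuits in tumour it was 46 and 4 under those scalings, and with Ddx3y as a covariate 1 passed for CMV-siRE against CMV-scrR. In liver, where 6 passed, it was 2 with no filter, 3 in a fit of the 8 libraries and 2 with the mitochondrial share. For CMV-siRE against CMV-scrR the 8 libraries gave 1 in lung, 1 in kidney, 3 in spleen and 12 in thymus. The mitochondrial share as a covariate gave 0 in spleen for both circuits against CMV-scrR, 17 in thymus with CMV-siRE and 4 in thymus with CMV-GE11-siRE. Without CMV-GE11-siRE replicate 4 the thymus count with CMV-siRE was 13. The cause was not tested. Leaving out in turn each of the 8 libraries that a comparison uses gave 6 to 12 in tumour and 2 to 8 in liver for CMV-GE11-siRE against CMV-scrR, 0 to 1 in tumour and in liver for CMV-siRE against CMV-scrR, 0 to 2 between the EGFR circuits in tumour, 1 to 1 in spleen against CMV-scrR and 0 to 0 elsewhere. Of 264 values of named members 2 changed sign after a call, Ccnd1 in tumour at 0.96 and 0.19.

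With the replicate number as a block the counts were 9 in tumour and 9 in liver for CMV-GE11-siRE against CMV-scrR, 1 and 1 in spleen and 0 in the other comparisons. Over all tested genes, deviations of libraries with the same number were little correlated. At most 2 of 12 pairs of a tissue were above 0.1, and the highest was 0.27. A weak pairing could leave such values, so whether the numbers pair libraries is not settled. Pairing of the same number across tissues was not examined. The number of libraries and the spread between them limit what could be detected, and the read depth behind each value is unknown. That spread was wider than for most genes in lung, kidney, liver and tumour.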
